A study of Saccharomyces cerevisiae with 9 samples.

Results

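The 24 tRNA probes whose names begin with the letter m, such as mPro1y, were followed across 9 microarrays of budding yeast. They were taken by this spelling alone from 64 tRNA probes, of which 40 have no prefix. The study asked how depletion of Not1, the scaffold of the Ccr4-Not complex, changes the amount of each tRNA and the share that carries its amino acid. By the sample records, Not1 depleted cells (MY13523) carried NOT1 fused to an auxin-inducible degron, written NOT1-AID-Myc6-NATMX4, and the wild-type (MY13472) carried untagged NOT1. Both strains held OsTIR1, the rice receptor that lets auxin trigger degradation, at ura3-1 under the constitutive ADH1 promoter and marked with URA3. The records give both as MATa with HIS3,15 and ADE2, mutant leu2 and the alleles trp1-1 and can1-100. The study's methods and strain list differ from the records: they give MATα with his3,15 and ade2 for both, and name the Not1 degron strain MY13517, with a 9Myc-AID tag. Which of these was used is not settled here. Cultures grew in glucose rich medium. Auxin (1 mM, 15 min) is listed in the sample records of either strain, whereas the methods give ethanol for the control, so that the treatment of the wild-type is not settled here. Each array came from independently grown cultures.

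Charging was measured on 3 arrays of Not1 depleted cells and on 3 of the wild-type, and abundance on 3 further arrays that carried both. On a charging array, the Cy3 channel held tRNA protected from periodate by its amino acid and the Atto channel held all tRNA of the same sample. The ratio of Cy3 to Atto, divided by that of the spiked standards, is the charged fraction in percent. On an abundance array, Cy3 marked tRNA from Not1 depleted cells and Atto that from the wild-type, without a dye swap.

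Mitochondria make a small set of membrane proteins on their own ribosomes and use their own tRNAs for this. In yeast these tRNAs are encoded by the mitochondrial chromosome, while the aminoacyl-tRNA synthetases that charge them are made in the cytosol and imported. Yeast mitochondria read UGA as tryptophan, and read the CUN leucine codons as threonine through a second threonine tRNA. The files do not explain the prefix and hold no probe sequences, so the name was compared with the R64 annotation of RefSeq. It lists 24 mitochondrial tRNA genes and 275 nuclear ones. The number of m-prefixed probes equalled the number of mitochondrial genes for 20 of 20 amino acids. For 16 of them this was 1 probe and 1 gene, and for arginine, methionine, serine and threonine it was 2 probes and 2 genes. The amino acid in the name therefore pairs 16 probes with 1 mitochondrial gene each, by name only.

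The mitochondrial genes of the 4 brightest and of the 3 dimmest such probes are shown, as examples from both ends of the range of signal. They are printed as annotated in R64, on the plus strand of the mitochondrial chromosome and 5′ to 3′, with the anticodon in capitals.
mPro1y, tP(UGG)Q, mitochondrion:731-802: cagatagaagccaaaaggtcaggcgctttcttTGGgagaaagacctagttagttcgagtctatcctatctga
mGln1y, tQ(UUG)Q, mitochondrion:66210-66285: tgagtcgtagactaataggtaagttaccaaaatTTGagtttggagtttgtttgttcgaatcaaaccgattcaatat
mAsn1y, tN(GUU)Q, mitochondrion:71433-71503: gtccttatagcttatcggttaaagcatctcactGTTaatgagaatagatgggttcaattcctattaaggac
mGly1y, tG(UCC)Q, mitochondrion:67468-67542: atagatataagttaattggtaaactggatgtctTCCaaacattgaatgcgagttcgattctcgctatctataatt
mCys1y, tC(GCA)Q, mitochondrion:64415-64490: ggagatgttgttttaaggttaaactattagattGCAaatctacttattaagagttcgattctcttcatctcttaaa
mIle1y, tI(GAU)Q, mitochondrion:70162-70237: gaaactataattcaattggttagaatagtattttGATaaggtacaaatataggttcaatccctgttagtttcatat
mPhe1y, tF(GAA)Q, mitochondrion:77431-77505: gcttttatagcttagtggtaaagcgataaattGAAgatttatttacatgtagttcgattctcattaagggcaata

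The mitochondrial genes were rich in A and T. Their GC content had a median of 32.4%, with 17.6% as the lowest and 44.4% as the highest, against a median of 54.2% for the nuclear tRNA genes, which ranged from 44.3% to 66.7%. The highest value belonged to the proline gene, whose probe was also the brightest member. The mitochondrial tRNA closest to a nuclear one was 67.6% identical to it over the aligned length, and the median of these best matches was 58.7%. Among themselves the mitochondrial tRNAs reached between 55.8% and 72.7% identity to their nearest relative. Over the 16 probes paired by name, signal had a Spearman rho of 0.30 with GC content and of 0.016 with identity to the closest nuclear tRNA, as a description of these genes.

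Each member had 18 spots per array, in 12 blocks of 2 alternating layouts named A and B here. Names in rows 5 to 8 of the blocks stood 1 row above their spots and were moved, after which the SD of log2 (Cy3/Atto) between positions of 1 member averaged 0.14, against 0.33 with the names as deposited. Spots of water (H2O) served as the background. Their 95th percentile in the Atto channel lay between 2 and 37.2 units above the local background on 7 arrays. It was 295 on Not1 depleted charging replicate 1 and 5705 on wild-type charging replicate 1, where the bright water spots lay in the layout A blocks. In the layout B blocks it did not exceed 23.3 on any array.

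On 7 of 9 arrays most m-prefixed probes gave a signal above water, but a weak one. The number of members with a median Atto signal above the 95th percentile of water was 5, 19 and 21 of 24 on the Not1 depleted charging arrays and 2, 23 and 17 on the wild-type charging arrays. It was 24, 19 and 19 on the abundance arrays. In the layout B blocks alone it was 20, 23 and 20 on the Not1 depleted charging arrays, 21, 21 and 24 on the wild-type charging arrays and 23, 20 and 20 on the abundance arrays, so that the low counts on both replicates 1 were not seen in these blocks. All 40 probes without the prefix exceeded water on 8 arrays, and 9 of them did on wild-type charging replicate 1. Across the 9 arrays, 2 members exceeded water every time and 14 did so on 7 arrays or more.

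The members were dimmer than the other probes on all 9 arrays. On the log2 scale their median Atto signal lay below that of the other probes by a difference of -2.66, -3.40 and -2.55 on the Not1 depleted charging arrays and -3.01, -2.93 and -4.61 on the wild-type charging arrays. On the abundance arrays, where Atto marks the wild-type, the difference was -4.58, -5.13 and -2.996. Both strains thus gave negative differences with overlapping ranges. The signal of a probe depends on its own hybridisation as well as on the amount of tRNA, so these differences do not give relative amounts of the tRNAs.

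The brightest member by the mean over the 9 arrays was mPro1y, paired by name only with the mitochondrial proline tRNA gene. It was the brightest on 8 of them, while on abundance replicate 1 mAsn1y, mGln1y and mTrp1y were brighter. Its median Atto signal was 5123.5, 17056.5 and 11701.5 on the Not1 depleted charging arrays, against 24266, 5228 and 3189.5 on the wild-type charging arrays, and 3132.5, 1254 and 4533.5 on the abundance arrays. The strains overlapped, and all 9 values exceeded water. It was brighter in layout A than in layout B on 8 of 9 arrays, for example 20254.5 against 170 on Not1 depleted charging replicate 2.

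The glutamine probe mGln1y came next, with 1253, 4775 and 2930.5 on the Not1 depleted charging arrays, against 6574, 2506 and 700.5 on the wild-type charging arrays. It read 4912.5, 843 and 2801 on the abundance arrays, and these 9 values also all exceeded water. The asparagine probe mAsn1y gave 682, 1437 and 988.5 on the Not1 depleted charging arrays, against 1452.5, 1158.5 and 369 on the wild-type charging arrays. The highest and the lowest of these 6 values were both from the wild-type. The glycine probe mGly1y gave 491, 1097 and 1577 on the Not1 depleted charging arrays, against 2782, 788 and 207.5 on the wild-type charging arrays, again with overlap.

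At the other end were mMet2y, 1 of 2 methionine probes, and mThr1y, 1 of 2 threonine probes. mMet2y gave 13.5, 10.5 and 7 on the Not1 depleted charging arrays, against 11, 4 and 9 on the wild-type charging arrays. mThr1y gave 25, 1 and 4.5 on the Not1 depleted charging arrays, against 46.5, 3.5 and 13 on the wild-type charging arrays. Its signal differed between layouts. On the Not1 depleted charging arrays mThr1y gave 61, 94.5 and 48 in layout A, against 16, 0.5 and 0.5 in layout B. On the wild-type charging arrays it gave 49.5, 18.5 and 59 in layout A, against 23.5, 1.5 and 6 in layout B. Both mMet2y and mThr1y exceeded water on 2 of 9 arrays. In the Atto channel mMet2y was not well above background on any charging array, and mArg1y, mPhe1y and mThr1y were not on any wild-type charging array, meaning that the median spot had under 50% of pixels above background. On the abundance arrays this held for mThr1y.

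The order of the members by signal was similar between arrays. The Spearman rho over the 24 members had a median of 0.87 over the 36 pairs of arrays, with 0.73 as the lowest and 0.98 as the highest. The points share their probes and spot positions. Between 5 and 11 members per array had a net signal under 50 units, the offset added to both channels before the ratio was taken, against 0 of the 40 other probes. The standards were dim as well, with a median net Atto signal between 57.5 and 257.5 units.

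Charged fractions were computed next. The median over the members was 96.7%, 77.7% and 70.8% on the Not1 depleted arrays (81.7% ± 13.4, SD, n = 3) and 111%, 93.6% and 63.3% on the wild-type arrays (89.5% ± 24.3, SD, n = 3). Over the probes without the prefix it was 120%, 59.7% and 79.4% in Not1 depleted cells and 94.5%, 102% and 43.4% in the wild-type. The ranges overlapped between strains and between the kinds of probe. The log2 difference of members minus other probes was -0.31, 0.38 and -0.17 in Not1 depleted cells and 0.24, -0.12 and 0.54 in the wild-type. Values above 100% cannot be true fractions, and members exceeded 100% in 10, 1 and 8 cases on the Not1 depleted arrays and in 15, 11 and 0 cases on the wild-type arrays. The level rested on the standards and on the spots used. Without Ser3h among them, the mean charged fractions of the members in each strain ranged from 12.8% to 78.7%, with 0 of 48 above 100%, against 25.1% to 161%, with 15 of 48 above, when it was kept. With empty spots kept, 45 of 48 were above 100%. In the layout A blocks alone the median of the 48 means was 61.6%, with 4 above 100%. In the layout B blocks alone it was 162%, with 44 above 100%.

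The members kept much of their order in charged fraction. The Spearman rho over the 24 members was 0.72 to 0.86 within Not1 depleted arrays, 0.65 to 0.85 within wild-type arrays and 0.66 to 0.90 between strains, as a description of probes that share arrays and standards. The lowest charged fraction on all 6 arrays was that of mPro1y, the brightest member. It read 23.7%, 31.1% and 20.6% in Not1 depleted cells (25.1% ± 5.4, SD, n = 3), against 30.6%, 38.6% and 28.9% in the wild-type (32.7% ± 5.2, SD, n = 3), and the strains overlapped. Among all 64 probes it ranked between 3 and 11 from the bottom. It stayed the lowest member on all 6 arrays under each of the other settings of background, scaling, names, empty spots, dim probes and layout. Its level ranged from 6.34% with plain subtraction of the background to 95.3% with empty spots kept. The layouts did not overlap, with 12.1% to 32.1% in layout A and 44.3% to 76.0% in layout B.

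The histidine probe mHis1y followed with a mean of 44.4% ± 7.5 in Not1 depleted cells and 53.5% ± 7.1 in the wild-type (SD, n = 3 each), and it ranked between 2 and 5 among the members on every array. The highest mean belonged to the lysine probe mLys1y, with 161% ± 54 in Not1 depleted cells and 147% ± 62 in the wild-type (SD, n = 3 each). It ranked between 22 and 24 of the 24 members. Without Ser3h these means were 78.7% in Not1 depleted cells and 64.9% in the wild-type, and with plain subtraction of the background the highest mean was instead that of mMet2y in the wild-type, at 206%. Between these ends, mGln1y averaged 64.7% ± 4.3 in Not1 depleted cells and 65.9% ± 17.4 in the wild-type. mAsn1y averaged 121% ± 24 in Not1 depleted cells and 135% ± 56 in the wild-type, and mGly1y averaged 97.2% ± 7.8 in Not1 depleted cells and 90.0% ± 35.3 in the wild-type. The serine probes mSer1y and mSer2y averaged 58.0% ± 10.2 and 68.8% ± 34.0 in Not1 depleted cells, against 69.3% ± 23.3 and 69.7% ± 35.0 in the wild-type. With errors of this size the strains were not separated for any of these members.

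The strains were compared with limma over all 64 probes. No member passed an adjusted p of 0.05, with 0 of 24 lower and 0 of 24 higher in Not1 depleted cells, and 0 had an unadjusted p under 0.05. The share called in each direction was 0.0% over all 64 probes, and the adjusted p was 0.994 for every member. Of the 24 members 13 had a lower and 11 a higher charged fraction, beside 48.4% lower and 51.6% higher over all probes. The median change of the members was -0.092 on the log2 scale, that of the other probes 0.018 and that of all probes 0.0033. The standard error was 0.47 for each probe, because limma pooled the variance over all 64 probes. Not1 depleted values lay entirely below the wild-type for 0 of 24 members, with 0.0% of all probes doing so.

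The lowest changes were those of the tryptophan probe mTrp1y and the cysteine probe mCys1y. mTrp1y read 93.7%, 67.6% and 76.9% in Not1 depleted cells, against 161%, 111% and 70.0% in the wild-type, and its log2 change was -0.45. mCys1y read 78.5%, 52.1% and 47.2% in Not1 depleted cells, against 87.1%, 90.1% and 57.6% in the wild-type, and its log2 change was -0.41. The Not1 depleted values were lower on average in both cases but overlapped with the wild-type.

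The highest changes were those of the leucine probe mLeu1y and the alanine probe mAla1y. mLeu1y read 228%, 95.8% and 131% in Not1 depleted cells, against 133%, 162% and 69.1% in the wild-type, a log2 change of 0.32. mAla1y read 202%, 88.1% and 125% in Not1 depleted cells, against 142%, 141% and 69.9% in the wild-type, a log2 change of 0.22. Both turned negative without Not1 depleted charging replicate 1 (-0.024 and -0.091) and without wild-type charging replicate 3 (-0.045 and -0.12).

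The charged fraction of the dim members depended on how the background was removed. With plain subtraction of the local background, 4 of 24 members were called lower in Not1 depleted cells and 0 of the 40 other probes were, which is 6.25% of all probes. These were mArg1y, mCys1y, mMet1y and mMet2y, with log2 changes of -1.26, -1.25, -1.23 and -1.17 and adjusted p of 0.013, 0.013, 0.013 and 0.018 in limma. The standard error was 0.35 for each, pooled over bright and dim probes, so these p-values do not rest on the replicate spread of the single probe. The median net Atto signal of these 4 members over the 9 arrays was 16, 55.5, 11.5 and 9 units, against 5123.5 for mPro1y. mCys1y then read 32.2%, 25.6% and 20.8% in Not1 depleted cells, against 57.6%, 52.7% and 76.4% in the wild-type, without overlap. In the same setting mMet2y gave 74.7%, 142% and 69.0% in Not1 depleted cells, against 261%, 170% and 187% in the wild-type, on a Atto signal not well above background. Not1 depleted values lay entirely below the wild-type for 14 of 24 members and 1 of 40 other probes, where the share over all probes was 23.4%. These members included mAsn1y, mTrp1y and mThr2y, ranked 3, 5 and 7 by signal, as well as dim ones such as mMet2y. The members ranked 1, 2, 4 and 6, which were mPro1y, mGln1y, mGly1y and mSer2y, were not among them.

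In that setting the members' median charged fraction exceeded that of the other probes on each array. The log2 difference was 0.23, 0.62 and 0.36 in Not1 depleted cells and 0.67, 0.72 and 1.00 in the wild-type, and these ranges did not overlap. The median change was -0.73 for the members and -0.42 for the other probes. Scaled to the median of all probes in place of the standards, with the same subtraction, the members' median change was -0.23 and 0 of 24 were called. With plain subtraction a dimmer member tended to have a higher charged fraction, with a Spearman rho of signal and ratio between -0.81 and -0.46 on the wild-type arrays and between -0.46 and -0.31 on the Not1 depleted arrays. With the offset of 50 these values lay between -0.14 and 0.28 on the wild-type arrays and between -0.21 and 0.23 on the Not1 depleted arrays. The part of dimness in these changes was not tested.

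On the abundance arrays the members had higher ratios than the other probes. The median log2 ratio, Not1 depleted cells over the wild-type, was -0.93, 0.23 and 0.14 over the members and -2.11, -0.053 and -1.03 over the other probes. The difference of members minus other probes was therefore 1.18, 0.28 and 1.18. It needs no scaling to the standards, because both kinds of probe share an array. On the 3 arrays 24, 17 and 23 of the 24 members lay above the median of the other probes. With plain subtraction of the background the difference was 1.12, 1.05 and 1.14.

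For 5 members, mAsn1y, mGln1y, mPro1y, mSer2y and mTrp1y, the wild-type signal lay between the lowest and the highest of the other probes on all 3 abundance arrays. They were still dimmer than most of them, with 0 of 5 above the median signal of the other probes on replicates 1 and 2 and 3 of 5 above it on replicate 3. Their median log2 ratio exceeded that of the other probes by 1.14, 0.38 and 0.88. All 5 lay above it on replicates 1 and 3, and 4 did on replicate 2. The dyes were not swapped, so that strain and dye cannot be told apart on these arrays, and the part of dimness was not tested.

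Against the standards, no member passed the threshold. limma called 0 of 24 lower and 0 of 24 higher, 0 had an unadjusted p under 0.05, and 0.0% of all probes were called in either direction. Of the other probes 13 had an unadjusted p under 0.05, all lower, which is 20.3% of all probes. With plain subtraction 4 members, mArg1y, mArg2y, mMet1y and mMet2y, had an unadjusted p under 0.05, all higher (6.25% of all probes), and their adjusted p ranged from 0.052 to 0.13. The median log2 ratio of the members was -0.19 and that of the other probes -1.06, with a standard error of 0.58 for each probe. Below 0 on all 3 arrays were 0 of 24 members and 19 of 40 other probes, where the share over all probes was 29.7%. Replicate 2 stood apart, since the order of the members on it had a rho of -0.88 with replicate 1 and -0.95 with replicate 3, against 0.86 between replicates 1 and 3. With plain subtraction these were 0.36, 0.36 and 0.87. Without replicate 2, 0 of 24 members and 23 of 40 other probes were called lower, 35.9% of all probes, and the median of the members was -0.42. Without replicate 1 that median was 0.16.

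The lowest ratios among the members were those of the valine probe mVal1y, with log2 values of -1.23, 0.87 and -1.44 (mean -0.60), and of mAla1y, with -1.62, 0.51 and -0.56 (mean -0.56). Replicate 2 had the opposite sign to the other 2 replicates for both. On each of the 3 arrays mVal1y kept only 9 of 18 spots. The highest ratios were those of the methionine probes mMet2y, with 0.47, -0.34 and 1.24 (mean 0.46), and mMet1y, with 0.52, -0.20 and 1.00 (mean 0.44). Replicate 2 again went the other way with the offset of 50. With plain subtraction all 3 replicates were positive, with 1.30, 1.60 and 2.90 (mean 1.93) for mMet2y and 1.35, 1.97 and 2.75 (mean 2.02) for mMet1y, and an adjusted p of 0.052 for each in limma. The standard error was 0.60 for each, pooled over all probes. After empty spots were left out, mMet1y kept 13, 7 and 1 of 18 spots on the 3 arrays and mMet2y kept 18, 10 and 4. With the offset, the adjusted p of these 4 members in limma ranged from 0.470 to 0.651.

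The same 3 arrays gave calls when 2 choices were changed together. With plain subtraction and scaling to the median of all probes, 10 of 24 members were called higher in Not1 depleted cells and 0 of 40 other probes were, which is 15.6% of all probes. In this setting the ratio is relative to the other tRNAs and no longer to the standards. These members were mGlu1y, mSer1y, mThr2y, mHis1y, mCys1y, mIle1y, mThr1y, mArg2y, mMet2y and mMet1y, with log2 ratios from 0.67 for mGlu1y to 2.90 for mMet1y and adjusted p from 0.022 to 0.0497. mMet1y read 3.31, 2.21 and 3.19 and mGlu1y 0.70, 0.65 and 0.67 on the 3 arrays. The value of mMet1y on replicate 3 came from 1 spot. With the offset of 50 and the same scaling, 0 of 24 members were called and their median was 0.62. None of mAsn1y, mGln1y, mPro1y, mSer2y and mTrp1y was among the 10. Of these, mAsn1y read 0.90, 0.37 and 0.40, mTrp1y 0.85, 0.20 and 0.59 and mSer2y 0.74, 0.23 and 0.12, positive on each array. mGln1y and mPro1y were negative on replicate 2 (-0.071 and -0.29). The 10 called members differed in wild-type signal on these arrays. mThr2y gave 803, 65.5 and 403.5 units, while mMet1y, mMet2y and mThr1y gave at most 22.5. The part of dimness was not tested.

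The total tRNA channel of the charging arrays gave a further view. Scaled to the standards in that channel, 24 of 24 members had a higher mean in Not1 depleted cells, beside 60.9% of all probes. Their median log2 change was 0.70, against -0.091 for the other probes, and limma called 0 of 24 in either direction, where 0.0% of all probes were called. With the offset of 50 the largest change was that of mTrp1y, at 1.39 (SE 0.61, adjusted p 0.905), the only probe with an unadjusted p under 0.05 (1.56% of all probes). Its scaled log2 values were 0.98, 3.22 and 2.38 in Not1 depleted cells, against 1.45, 0.78 and 0.17 in the wild-type, with overlap. With plain subtraction 7 of 24 members had an unadjusted p under 0.05, all higher (10.9% of all probes), 0 were called after adjustment, and the largest change was that of mPhe1y, at 2.05 (adjusted p 0.382), on a wild-type signal not well above background. For 5 of 24 members, mArg2y, mMet1y, mMet2y, mPhe1y and mSer1y, Not1 depleted values lay above the wild-type without overlap, where the share over all probes was 7.81%. Of these, mMet2y was not well above background in either strain and mPhe1y was not in the wild-type. The sign of the change depended on the layout for both kinds of probe. The median of the members was 1.02 in the layout A blocks and -1.10 in the layout B blocks. That of the other probes was likewise positive in layout A and negative in layout B. It lay below the median of the members in each layout, so the order of members and other probes did not reverse.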

How the data were processed

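Spot tables of 9 two-colour tRNA microarrays were used, with 1452 spots per array. Deposited by the authors were foreground and background fluorescence intensity and the percent of pixels above background, without normalization, and image software is not given in the sources used here. Per the labels, 4 pmol of each of 4 tRNA standards was added to 2 µg of total RNA. Grouping followed the sample records. Names of rows 6 to 8 came from the row above, and row 5 was left out. Background was corrected with normexp (offset 50) in limma 3.58.1 under R 4.3.3. Spots with under 50% of pixels over background by 2 SD in both channels were left out. Log2 ratios were centred on the standards (EcTyr2, EcLys2, His1h, Ser3h), averaged per probe and fitted with lmFit and eBayes over all 64 probes, with Benjamini-Hochberg adjustment. The fit was tested on simulated data, with changes planted only in bright probes and no spot left out as empty. Recovery of changes in dim probes was not tested. The number of arrays limits the precision. In an exact permutation test, 3 arrays against 3 cannot give a p below 0.1.

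The members, lists and tests were chosen with earlier results of these data known. Members were named by rule: the 4 brightest and 2 dimmest, the 2 highest and 2 lowest changes in charged fraction and in abundance, and any past the threshold. Charged percent may be given for all. Others named beside a count were chosen after their values were seen. Identities came from global alignments of R64 genes (Python 3.11.15, Biopython 1.88). Alternatives were other background corrections, scalings, spot and probe filters, names as deposited, a variance trend, a replicate block and each array left out. Those added after seeing the data were single layouts, plain subtraction joined with scaling to all probes, and normexp with offset 50 for the signal against water and against the other probes.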

Additional observations from a re-analysis of the deposited data

Results flagged for a closer look

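Spots in row 5 of the blocks carried no usable name after the names were moved and entered no comparison, yet most of them gave a signal. Of 132 such spots per array, a median of 119 over the 9 arrays exceeded the 95th percentile of the water spots in the Atto channel. The count was 109, 118 and 120 on the Not1 depleted charging arrays, 17, 117 and 121 on the wild-type charging arrays and 120, 119 and 120 on the abundance arrays. Which probes these spots hold was not tested.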

How the results depend on the processing

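The direction of the weak changes depended on the processing, and the cause was not tested unless stated. With plain subtraction of the background, 4 members in place of 0 were lower in charged fraction, the members' median change was -0.73 in place of -0.092, and the median difference to the other probes over the 6 charging arrays was 0.64 in place of 0.060. With normexp and offset 0 the last 2 values were -0.55 and 0.57, and 0 members were called. mAla1y and mLeu1y turned to -0.13 and -0.12 in charged fraction with plain subtraction, to -0.091 and -0.024 without Not1 depleted charging replicate 1, and to -0.12 and -0.045 without wild-type charging replicate 3. With each array left out, their highest values were 0.51 and 0.60. Scaled to the median of all probes, the median abundance ratio was 0.62 in place of -0.19, and mVal1y and mAla1y turned to 0.21 and 0.25. With plain subtraction as well, the median was 0.77, mVal1y and mAla1y were 0.21 and 0.36, and 10 members in place of 0 were higher. With names as deposited the median was 0.66, mVal1y and mAla1y were 0.27 and 0.11, and 0 members exceeded the water spots, because the water names then stood on tRNA spots.

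With each array left out in turn, the median change in charged fraction ranged from -0.34 to 0.080 and the median abundance ratio from -0.42 to 0.16. The difference to the other probes was a median over arrays. In charged fraction it ranged from -0.12 to 0.24, where single arrays gave -0.31 to 0.54. In Atto signal it ranged from -3.21 to -3.002, where single arrays gave -5.13 to -2.55. Counts of members called in charged fraction, abundance and total signal stayed at 0. The median over arrays of the count above water stayed at 19, where single arrays gave 2 to 24. Each such count and each difference came from its own array, so leaving out another array could not change it. Same-numbered charging arrays did not deviate together (r of 0.087, -0.61 and -0.059). Some differently numbered arrays did, and others deviated apart. The highest r was 0.78, for Not1 depleted replicate 2 with wild-type replicate 3. The lowest of these was -0.70, for Not1 depleted replicate 1 with wild-type replicate 3. With the replicate number as a block, 0 members were called. The median change in charged fraction was -0.092 again, which this block cannot alter, because each replicate number holds 1 array of each strain. For single named members, 119 of 134 changes kept their direction and their side of the threshold. The variance trend, the replicate block and leaving out dim probes cannot alter the direction for a member that is kept. The mean charged percents of the members were less stable, since 322 of 520 moved by more than the SD of the replicates, among them 48 of 48 without Ser3h in the standards.

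Signal over background limits the values of the dim members, since up to 11 of 24 lay under the offset of 50 on an array.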
